A study of Mus musculus with 3 samples.

Results

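The data described here are the transcript levels of 9 enzymes that turn squalene into cholesterol: Sqle, Lss, Cyp51, Tm7sf2, Nsdhl, Hsd17b7, Ebp, Sc5d and Dhcr7. The genes were chosen by name from the platform annotation, with earlier results of these data known. Each of the 9 had 1 probe set that carried its symbol alone. They are 9 of 19938 genes measured on 3 Affymetrix arrays, 1 array for each of 3 groups of cultured peritoneal macrophages. All cells came from male Angptl4-/- mice of strain C57Bl/6J, drawn into the peritoneal cavity with thioglycollate, and no age is given for the mice in the labels. The groups were PBS for 6 h, intralipid (a triglyceride emulsion) at 0.5 mM triglyceride for 6 h, and the same intralipid with 2.5 µg/mL recombinant ANGPTL4, added 1.5 h ahead. ANGPTL4, a protein that blocks lipoprotein lipase outside the cell, could not be made by these cells, by their genotype. No wild-type cells and no cells given ANGPTL4 without lipid were analysed here, so the effect of ANGPTL4 by itself was not measured. Each array held RNA pooled from 3 samples, so the spread between cultures is not known, no test was possible, and all differences are between these arrays.

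Cholesterol is built from acetyl-CoA through mevalonate and farnesyl units to squalene, a linear hydrocarbon. The 9 enzymes take over there: squalene is oxidised and folded into lanosterol, its extra methyl groups are removed, and the double bonds of the ring and side chain are moved or reduced. Nearly all of these genes are known targets of SREBP2, a membrane-bound transcription factor that is released when the sterol content of the endoplasmic reticulum drops and held back by Scap and Insig proteins when it is high. SREBP2 is known to act together with the factors NF-Y and Sp1, which bind close by in these promoters. In macrophages, the intermediates of this branch, desmosterol among them, are also known to activate the nuclear receptor LXR.

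Promoters of 4 genes are shown, those of the 3 enzymes that differed most between intralipid and PBS and that of Tm7sf2, which did not differ. Each runs from 250 bases before to 50 bases after a RefSeq start site (build GRCm38.p6), 5′ to 3′ on the strand of the gene. Capitals mark an NF-Y box (CCAAT, or ATTGG on the other strand), an Sp1 box (GGGCGG or CCGCCC), an E-box (CACGTG) or the letters TCACCTCA, a form of the sterol regulatory element that SREBP binds. Cyp51 lies on the minus strand at chr5:4104648-4104947, Sc5d on the minus strand at chr9:42264251-42264550, Hsd17b7 on the minus strand at chr1:169969156-169969455 and Tm7sf2 on the minus strand at chr19:6067801-6068100.
Cyp51: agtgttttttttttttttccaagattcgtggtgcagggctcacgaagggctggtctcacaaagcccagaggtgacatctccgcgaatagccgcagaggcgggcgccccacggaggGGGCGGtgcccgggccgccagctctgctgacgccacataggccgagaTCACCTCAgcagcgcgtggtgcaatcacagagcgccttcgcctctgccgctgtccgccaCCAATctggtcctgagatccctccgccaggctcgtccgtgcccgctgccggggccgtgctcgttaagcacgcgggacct
Sc5d: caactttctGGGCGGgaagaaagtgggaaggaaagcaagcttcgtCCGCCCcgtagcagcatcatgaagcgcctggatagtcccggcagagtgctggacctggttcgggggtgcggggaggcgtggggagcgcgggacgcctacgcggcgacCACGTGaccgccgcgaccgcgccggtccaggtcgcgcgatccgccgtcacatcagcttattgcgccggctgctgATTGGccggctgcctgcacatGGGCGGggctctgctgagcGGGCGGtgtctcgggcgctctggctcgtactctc
Hsd17b7: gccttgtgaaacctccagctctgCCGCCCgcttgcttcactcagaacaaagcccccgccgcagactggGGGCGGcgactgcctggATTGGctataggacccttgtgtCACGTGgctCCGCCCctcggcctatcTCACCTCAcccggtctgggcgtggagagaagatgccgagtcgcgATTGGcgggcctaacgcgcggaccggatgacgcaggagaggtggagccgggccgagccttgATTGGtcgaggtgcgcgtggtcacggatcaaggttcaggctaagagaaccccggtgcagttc
Tm7sf2: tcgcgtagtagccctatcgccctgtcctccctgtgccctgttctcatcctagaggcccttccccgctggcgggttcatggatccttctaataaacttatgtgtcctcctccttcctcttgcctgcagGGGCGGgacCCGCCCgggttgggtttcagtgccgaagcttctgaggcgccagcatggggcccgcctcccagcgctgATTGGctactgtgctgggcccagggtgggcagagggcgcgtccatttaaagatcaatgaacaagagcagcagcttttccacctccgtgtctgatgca

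RefSeq promoters of this length were matched for 8 of the 9 enzymes (all but Sqle), 10 promoters in all because Dhcr7 has 3 start sites. An NF-Y box was found in 8 of the 10 promoters, an Sp1 box in 9 and both in 8, searched on both strands. Of 32851 promoters of the same length, 37.4% held CCAAT, 35.7% GGGCGG and 12.8% both. Among the 10366 promoters of genes expressed on these arrays, the shares were 36.7%, 63.2% and 23%. Counted per gene, where Dhcr7 has 3 chances, all 8 enzymes had each box, beside 41.9% of expressed genes with an NF-Y box, 69.7% with an Sp1 box and 27% with both in 1 promoter. No promoter of the 8 genes held TCACNCCAC, the sterol element in its strict form, which 1.24% of all promoters hold. Its looser form TCACNCNAC, which includes the strict one, was found in Nsdhl alone, against 2.7% of all promoters. The E-box was found in Sc5d, Hsd17b7 and Dhcr7, 3 of the 8 genes, against 12.3% of expressed genes. Per promoter it was found in 3 of 10, against 10.4% of expressed and 7.15% of all promoters. No matches of different motifs overlapped in these promoters. The letters are a description of the windows and show no binding. Tm7sf2 and Cyp51 each held both boxes. Tm7sf2 had the same value on every array, as did 24.9% of expressed genes, and Cyp51 differed most. A link between the boxes and the differences was not tested.

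**Figure D1:**
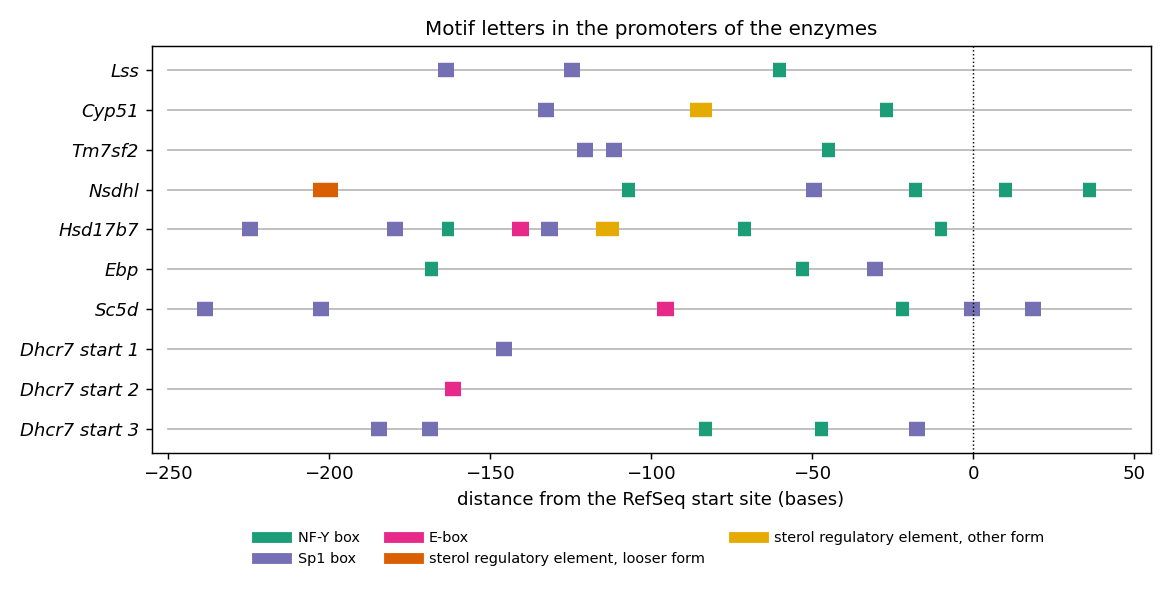
Positions of motif letters in the RefSeq promoters of 8 enzymes, 1 line per promoter, against the distance from the start site in bases (0 is the first transcribed base). Each of the 8 genes has an NF-Y box and an Sp1 box in at least 1 promoter, and Dhcr7 has 3 start sites, of which start 3 holds both.

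The arrays were alike in overall level, and the median over all probe sets lay between 4.50 and 4.54 on the log2 scale. Angptl4 itself read 4.92 on each array, below the expression floor of 4.98 to 5.00 (the median of the probe sets with 1 gene symbol on the same array). Of the macrophage markers, 9 of 9 measured passed the floor, and their summed linear level ran from 23483 with PBS to 25234 with intralipid plus ANGPTL4. B cell (4 measured), T and NK cell (7) and mast cell (6) markers had 0 past the floor. Of 8 fibroblast markers, 5 passed, with a summed level of 2322 to 2347. Of the others, Wt1 (mesothelial), S100a8 (neutrophil), Siglecf (eosinophil) and Clec9a (dendritic) were the only members of their lists past the floor. For the dendritic list the summed level was 61.4 with PBS, 82.5 with intralipid and 60.5 with ANGPTL4, and for the eosinophil list 216, 192 and 216. The part of these cells in the results below was not tested. Fewer cells of a type and less RNA per cell cannot be told apart on such arrays. Probe sets often had exactly 1 value on all 3 arrays, as did 24.9% of the genes past the floor.

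With intralipid, 8 of the 9 enzymes were lower than with PBS and Tm7sf2 was identical. The median log2 difference of the 9 was -0.84, against 0.00 over the 10018 genes past the floor on either array, of which 44.5% were lower, 23.5% higher and 32.0% identical. Cyp51 and Sc5d, 2 of the 9, were past 2-fold downward, a size that 1.33% of those genes reached. At 1.5-fold, Sqle, Lss and Hsd17b7 joined them, which made 5 of 9 against 5.59% of all genes. None of the 9 was higher, while 2.52% of all genes were higher by 2-fold and 5.08% by 1.5-fold. The 9 differences ran from 1.00-fold for Tm7sf2 to 3.71-fold for Cyp51. Each value rests on 1 pool per group.

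**Figure D2:**
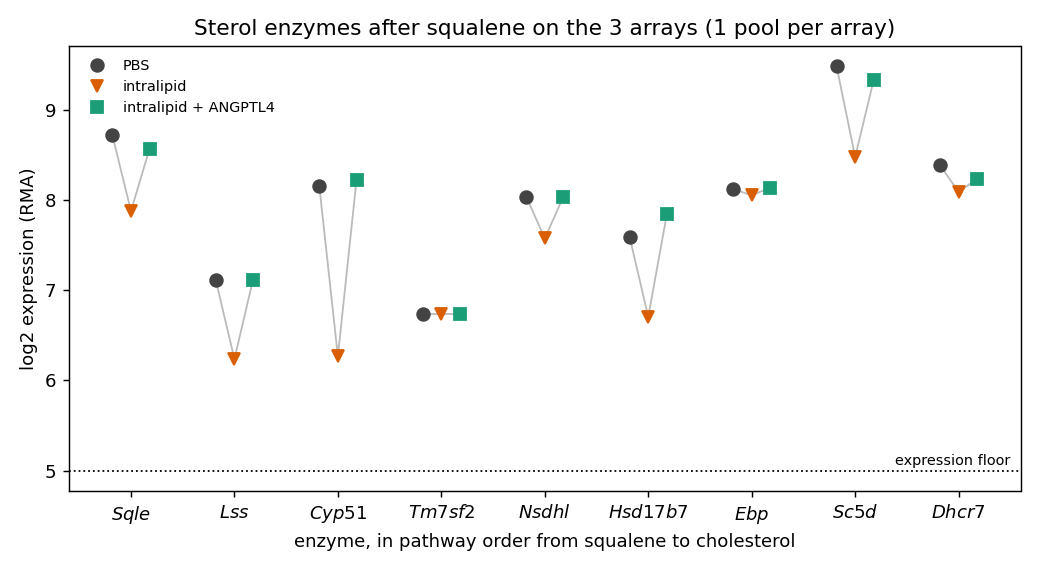
Deposited log2 expression of the 9 enzymes on the PBS (circle), intralipid (triangle) and intralipid plus ANGPTL4 (square) arrays, 1 pool per array, in pathway order; grey lines join the arrays of 1 gene and the dotted line is the expression floor. Triangles lie lowest for 8 enzymes, from 6.24 for Lss to 8.47 for Sc5d, and Tm7sf2 sits at 6.73 on all arrays; heights are not comparable between genes.

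The branch opens with Sqle, the squalene epoxidase, which spends molecular oxygen and is known as a control point of the pathway. The log2 values of Sqle were 8.72 for PBS, 7.87 for intralipid and 8.57 for the combination, the order used for all genes from here on. The intralipid array was thus the low one, and the array with ANGPTL4 lay slightly under PBS. The intralipid level was 1.80-fold below PBS, a log2 difference of -0.84. Lss, lanosterol synthase, closes the epoxide into the first sterol. Its log2 values were 7.11, 6.24 and 7.11 in the same order, 1.83-fold lower with intralipid than with PBS and nearly the same on the outer arrays. To judge these sizes without replicates, each was set beside the robust SD of the log2 differences of genes of like expression (0.5 times the width of the central 68%). The Sqle difference was 3.38 and the Lss difference 4.05 times that spread, which is a spread over genes and not over cultures. Genes with identical values on both arrays, 32.0% for intralipid against PBS, count in such spreads. They can narrow the spread and so enlarge these multiples.

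Cyp51, the lanosterol demethylase of the cytochrome P450 family, had the widest range of the 9. Its log2 values were 8.16, 6.27 and 8.22. Only the intralipid array was low, 3.71-fold below PBS, and the others lay 0.06 apart. That log2 difference of -1.89 took rank 14 from the bottom among 10018 genes and was 7.87 times the spread of genes of like expression. The next step, reduction of the double bond that Cyp51 leaves, can be done by Tm7sf2 or by Lbr, the lamin B receptor of the inner nuclear membrane. Tm7sf2 read 6.73 on all 3 arrays, to every deposited digit. Lbr, which is not among the 9, read 7.49, 7.14 and 7.48, or 1.28-fold lower with intralipid. Both were thus far from the size seen for the demethylase just ahead of them. Since 24.9% of the genes past the floor likewise had 1 value on all arrays, the identity of the Tm7sf2 values is no measure of how closely its transcript was held.

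Removal of the remaining methyl groups is the work of a complex of Msmo1, Nsdhl and Hsd17b7. Nsdhl, a dehydrogenase that takes off a carboxyl group and is mutated in the X-linked CHILD syndrome, read 8.04, 7.57 and 8.04. It was 1.38-fold lower with intralipid than with PBS, or 1.58 times the spread of genes of like expression, and identical on the PBS and ANGPTL4 arrays. Such identity of those arrays held for 40.1% of all genes past the floor. Hsd17b7, the ketosteroid reductase that ends this step, read 7.59, 6.70 and 7.84. Its intralipid level was 1.85-fold below PBS, and with ANGPTL4 it lay 0.26 above PBS, the largest excess among the 9. Msmo1, the oxidase of the same complex and not among the 9, read 11.51, 10.43 and 11.50, a 2.11-fold lower level with intralipid. The enzymes of this complex therefore shared a direction, with log2 differences of -1.08 for Msmo1, -0.88 for Hsd17b7 and -0.46 for Nsdhl.

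The last group moves and reduces the double bonds. Ebp, the sterol isomerase also known as emopamil binding protein, read 8.12, 8.05 and 8.13, a log2 difference of -0.07 between intralipid and PBS. That is 0.28 times the spread of genes of like expression, and 36.2% of all genes were as low or lower. Sc5d, the desaturase that turns lathosterol into the substrate of Dhcr7, read 9.48, 8.47 and 9.33. It was 2.01-fold lower with intralipid, a log2 difference of -1.01 that lies just past the 2-fold threshold, while Hsd17b7 with -0.88 lies just short of it. With cyclic loess normalization Sc5d was at -0.99, and 1 of the 9 enzymes instead of 2 was then past 2-fold. Dhcr7, which completes cholesterol and is mutated in the Smith-Lemli-Opitz syndrome, read 8.38, 8.09 and 8.23. Its level was 1.23-fold lower with intralipid, or 1.18 times the spread of like genes. Large and small differences were thus interspersed along the chain, and the final step, Dhcr7, was among the small ones.

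**Figure D3:**
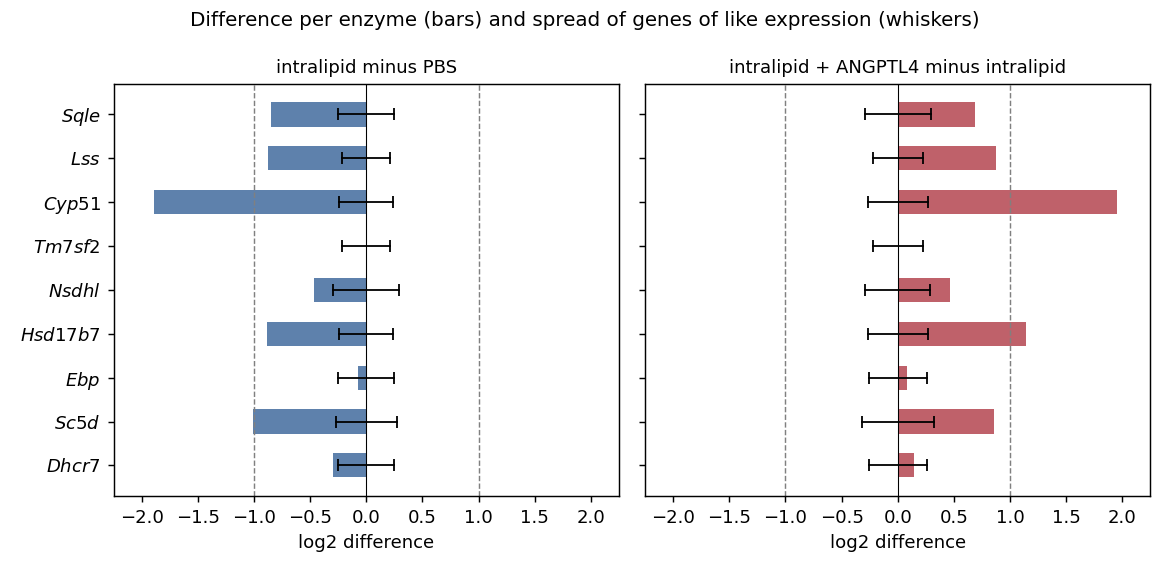
Log2 difference of each enzyme (bars) for intralipid minus PBS, left, and intralipid plus ANGPTL4 minus intralipid, right; whiskers are the robust SD over genes of like expression, not a replicate error, and dashed lines mark 2-fold. Cyp51 has the longest bars (-1.89 and 1.95), and those of Tm7sf2 and Ebp lie inside their whiskers on both sides.

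With ANGPTL4 present beside intralipid, 8 of the 9 enzymes were higher than with intralipid alone and Tm7sf2 was again identical. This comparison uses the same intralipid array, so its values are not independent of those above. The median log2 difference was 0.69, against 0.00 over 10025 genes, of which 46.5% were higher and 23.1% lower. Cyp51 (3.87-fold) and Hsd17b7 (2.20-fold) were at least 2-fold higher, 2 of 9, where 2.53% of all genes were. At 1.5-fold, Lss (1.84-fold), Sc5d (1.81-fold) and Sqle (1.62-fold) were added, so that 5 of 9 compared with 8.28% of all genes. Cyp51 took rank 28 from the top among the 10025 genes and Hsd17b7 rank 185. The log2 differences of Nsdhl (0.46), Dhcr7 (0.15) and Ebp (0.09) were smaller, at 1.59, 0.57 and 0.33 times the spread of genes of like expression. None of the 9 was lower, where 2.3% of all genes were lower by 2-fold and 4.97% by 1.5-fold. The labels do not mention a mock pre-incubation of the cultures without ANGPTL4.

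**Figure D4:**
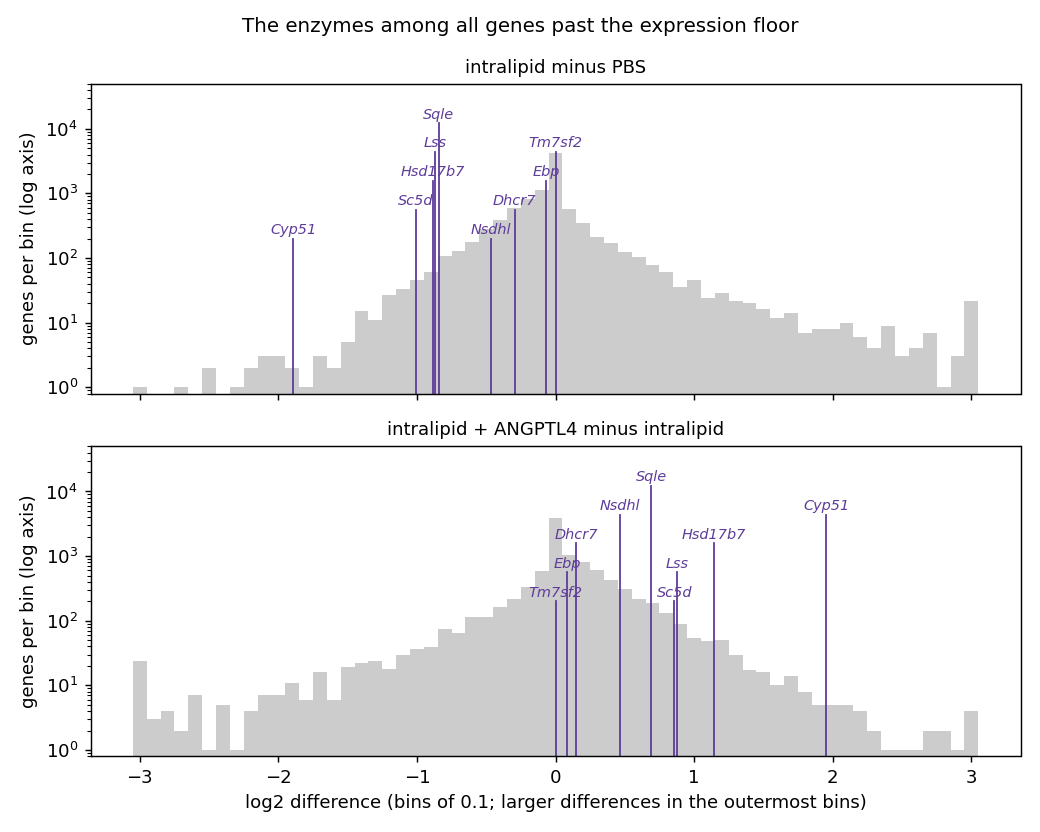
Number of genes past the floor per bin of log2 difference (grey, log axis) with the 9 enzymes as vertical lines, whose heights only separate the names. In the upper plot (intralipid minus PBS) Cyp51 lies in the far lower tail at -1.89 and 4 others between -1.01 and -0.84; in the lower plot (intralipid plus ANGPTL4 minus intralipid) Cyp51 lies at 1.95 and Hsd17b7 at 1.14.

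Set against PBS, the array with intralipid plus ANGPTL4 showed small differences for all 9 enzymes, from -0.15 to 0.26 on the log2 scale. The median was 0.00, which was also the median over 9960 genes. At 2-fold, 0 of the 9 were called in either direction, against 0.843% of genes higher and 0.0402% lower. No test was run for this count, because each group had 1 array. At 1.5-fold, 0 of 9 were called as well, against 2.37% higher and 0.532% lower. Hsd17b7 was the highest, 1.19-fold above PBS, or 2.37 times the spread of like genes in this comparison. Sqle, Sc5d and Dhcr7 lay 1.11-fold below PBS each, with log2 differences of -0.15, from 1.10 to 1.28 times that spread. Of the log2 difference between intralipid and PBS, 49.8% was left with ANGPTL4 for Dhcr7, whose difference was small, 18.0% for Sqle and 14.7% for Sc5d, while Cyp51 and Lss were at or above their PBS level. The shares use the PBS and intralipid arrays in both terms and carry no error.

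The enzymes ahead of squalene differed by more at their extremes. Of 8 measured genes of the mevalonate stage and squalene synthesis, 7 were lower with intralipid, 4 of them at least 2-fold, with a median of -0.95, while 44.5% of all genes were lower and 1.33% by 2-fold. Hmgcs1, the synthase that starts the stage, was 6.60-fold lower (log2 values of 10.02, 7.29 and 9.78 for the 3 arrays), and Idi1, an isomerase, 4.63-fold (9.03, 6.82 and 8.98). Fdft1, which makes squalene itself and so feeds Sqle, was 2.34-fold lower (9.14, 7.91 and 9.16), and Fdps, which supplies the farnesyl units, 2.16-fold. Mvk, Pmvk and Ggps1 lay within 0.08 of PBS. Both stages thus held members with large differences next to members with almost none. Whether the stages differ from each other was not tested, as 1 array per group allows no test.

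Genes that set the sterol supply were measured alongside. Of 10 sterol sensing and uptake genes past the floor, 8 were lower with intralipid than with PBS, 0 higher and 1 at least 2-fold lower, with a median of -0.24. Over all genes, 44.5% were lower and 1.33% lower by 2-fold. The 1 past 2-fold was Stard4, a carrier that moves cholesterol between membranes, 3.96-fold lower (7.74, 5.75 and 7.68). Insig1, which holds SREBP back and is itself a target of it, was 1.93-fold lower, and Mylip, a ligase that degrades the low-density lipoprotein receptor and is an LXR target, 1.91-fold. Srebf2, the gene for SREBP2, read 8.72, 8.34 and 8.80, a log2 difference of -0.38. Srebf1 and Scap were each identical on all arrays. Transcripts of this group therefore included both strong and weak differences, and the amount of processed SREBP2 protein was not measured.

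Genes for disposal of cholesterol included 1 with a large difference upward for intralipid against PBS. Of 6 past the floor, 5 were higher (23.5% of all genes were), 0 lower and 1 at least 2-fold higher (2.52% of all genes), with a median of 0.21. No other member passed 1.5-fold. The 1 past 2-fold was Abca1, the exporter of cholesterol to apolipoprotein A-I and an LXR target, which read 9.19, 10.67 and 9.30. Its intralipid array was the high one, 2.78-fold above PBS, where those of the sterol enzymes were low. Abcg1, another LXR target, read 10.05, 10.26 and 9.64, so its lowest array was that with ANGPTL4. Nr1h3, which encodes LXR alpha, read 8.35, 8.81 and 9.31 and was highest with ANGPTL4. Apoe was identical on all arrays. Abca1 and Abcg1 thus both read highest with intralipid, and their lowest arrays differed. Abcg1 lay 1.16-fold above PBS with intralipid, 0.76 times the spread of genes of like expression. Identity on all arrays, as for Apoe, held for 24.9% of the genes past the floor.

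Transcripts for electron donors and for proteins of enzyme turnover were measured as well. Whether each of them serves the 9 enzymes was not tested. Of 8 genes for electron donors and enzyme turnover, 5 were lower with intralipid than with PBS (44.5% of all genes were), 1 higher and 0 past 1.5-fold downward, which 5.59% of all genes were. With ANGPTL4 against intralipid alone, 1 of the 8, Cyb5b, was past 1.5-fold (1.89-fold higher), against 8.28% of all genes. Cyb5b, an outer mitochondrial membrane cytochrome b5, read 8.73, 8.19 and 9.11, and Cyb5a, the microsomal form that passes electrons to sterol oxidases, 9.43, 9.12 and 9.62. Both were highest with ANGPTL4, as were Hsd17b7 and Cyp51 among the 9 enzymes. Lss and Ebp read above PBS by only 0.007 and 0.016 in log2. With median centring they lay below PBS instead, at -0.028 and -0.020. Marchf6, the ligase known to mark squalene epoxidase for degradation, was 1.20-fold lower with intralipid. Tmem97, a sterol-regulated membrane protein, was 1.42-fold lower. Sqle protein can change through that ligase without a change in transcript, and protein was not measured here.

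Fatty acid synthesis genes, controlled mainly by SREBP1c, were lower too, with 10 of 13 lower, 0 higher and 3 lower by at least 2-fold when intralipid was set against PBS, beside 44.5% and 1.33% of all genes lower and lower by 2-fold. Mid1ip1, an activator of acetyl-CoA carboxylase, was 2.60-fold lower and Scd2, a desaturase, 2.57-fold. With ANGPTL4 their log2 differences from PBS were -0.42 and -0.50, and those of Elovl6 and Aacs, the next in size for intralipid against PBS, -0.16 and -0.14. The median of the 13 against PBS was -0.10.

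**Figure D5:**
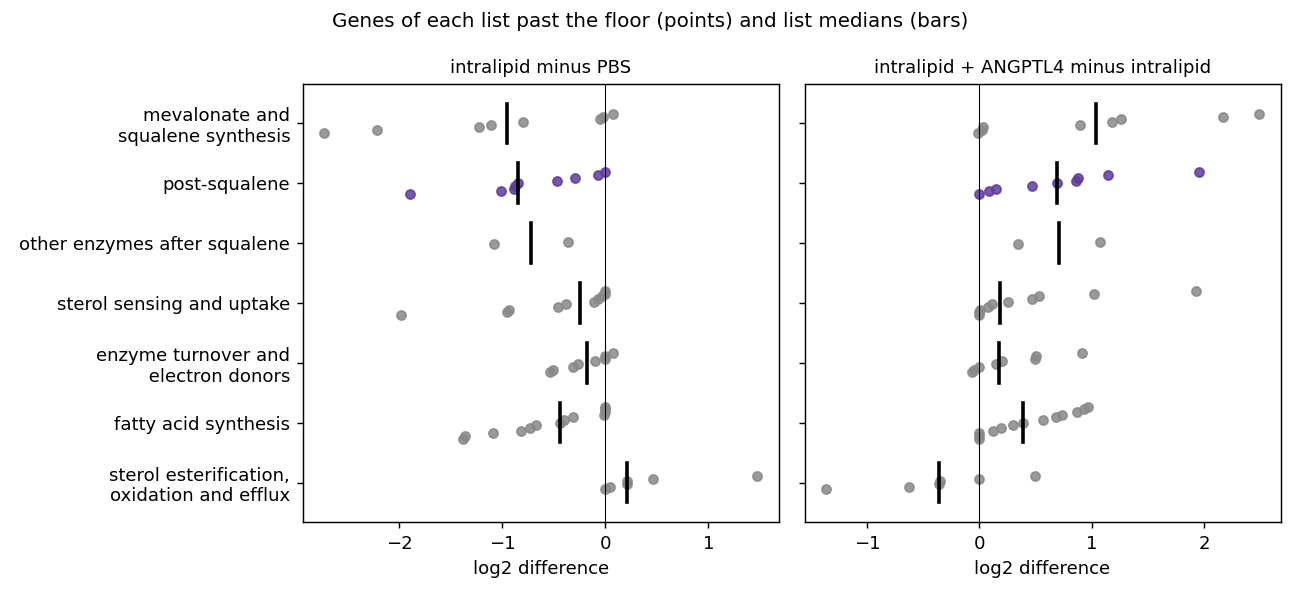
Log2 differences of the genes past the floor in 7 lists (points; the 9 enzymes in purple) with list medians (black bars), for intralipid minus PBS, left, and intralipid plus ANGPTL4 minus intralipid, right. On the left the medians are -0.95 for the mevalonate stage, -0.84 for the 9 enzymes and 0.21 for cholesterol disposal; on the right they are 1.03, 0.69 and -0.36.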

How the data were processed

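Per the labels' protocols, adherent peritoneal cells were collected 3 days after 4% thioglycollate and cultured for 2 days. Each group's RNA was a pool of 3 samples, of which 100 ng was labelled for a whole-transcript array. The authors deposited log2 expression values per probe set, made with RMA per the submitters' processing notes. The notes name no version, chip definition or filter. The values were used as deposited. Their scale follows the RMA note and range, and no centring of genes was seen. GEO's platform annotation gave 1 symbol to 21789 of 35556 probe sets, several to 1621 and none to 12146. The probe set with the highest mean stood for a gene. A gene was called where 2 arrays differed at least 2-fold (or 1.5-fold, where stated) and the higher one reached the floor. Robust SDs were taken in 20 bins of mean expression. Named genes were the 9 enzymes, up to 4 genes per list with the largest difference between intralipid and PBS, and the 5 nearest in pattern; Srebf2, Srebf1, Scap, Mvk, Pmvk, Ggps1, Apoe and Angptl4 were added for context. The members and lists were chosen with earlier results of these data known. With 1 array per group no test was run, and the number of arrays limits the precision. Python 3.11.15 with pandas 2.3.3 and R 4.3.3 with limma 3.58.1 were used. Alternatives changed the fold threshold, the floor, the normalization (median centring, cyclic loess, quantile) and the probe set rule, and 1 motif was searched after the promoters were seen. RefSeq promoters came from build GRCm38.p6.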

Additional observations from a re-analysis of the deposited data

How the results depend on the processing

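At 1.5-fold, 5 enzymes were lower with intralipid than with PBS and 5 were higher with ANGPTL4 than with intralipid alone, in place of 2 and 2, and at 3-fold Cyp51 alone remained in each comparison (1 and 1). Cyclic loess normalization left 1 enzyme at least 2-fold lower with intralipid, as Sc5d moved from -1.01 to -0.99 (the cause was not tested). The counts under no floor, the 75th percentile floor, median centring, quantile normalization and the mean over probe sets stayed within 1.5 times. The median differences moved by less than the robust SD over genes (0.20, 0.23 and 0.10 for the 3 comparisons) under every setting run, among them the mean over members and each member left out in turn. Single enzymes moved by at most 0.06 in log2. Each enzyme has 1 probe set, so the mean over probe sets tests nothing for it. Leaving out the floor tests nothing either, because all 9 enzymes lay past it. No paired analysis was possible because each group had 1 array. All 9 enzymes lay past the floor on every array, but background itself was not measured, so how far it narrows their folds is not known.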

Other observations

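The genes nearest in pattern to the enzymes were sought among 10048 genes past the floor by the Euclidean distance between their pairs of log2 differences (intralipid minus PBS, and intralipid plus ANGPTL4 minus intralipid), which share an array. Nearest to the medians of the 9 enzymes were Kif21b, a kinesin (distance 0.02), Cd200r1, an inhibitory receptor of myeloid cells (0.03), Aacs, which makes acetoacetyl-CoA for lipid synthesis (0.03), Crybg1 (0.03) and Dck, deoxycytidine kinase (0.04). Of these only Aacs was on a list used here. Nearest to Cyp51 were Stard4 (0.10), Extl3, a glycosyltransferase of heparan sulfate synthesis (0.14), Ptpn6, the phosphatase SHP-1 (0.24), Chst12, a chondroitin sulfotransferase (0.28), and Zfp710, a zinc finger protein (0.30). The log2 values for PBS, intralipid and intralipid plus ANGPTL4 were 7.85, 5.99 and 8.08 for Extl3 and 9.89, 8.23 and 10.20 for Ptpn6. Some genes outside sterol synthesis thus had differences of a similar size. As these genes were picked for that closeness, they do not show how common such differences are.

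The letters TCACCTCA were searched after the promoters had been seen. They were present in Cyp51, from -88 to -81 relative to the start site, and in Hsd17b7, from -117 to -110, and in none of the other 6 genes with a promoter. Of all 32851 promoters, 1.17% held them, and of the promoters of expressed genes 0.974%. Cyp51 and Hsd17b7 passed 2-fold between intralipid plus ANGPTL4 and intralipid. Between intralipid and PBS, Cyp51 and Sc5d did, and Sc5d lacks the letters. In that comparison Sc5d (-1.01) and Hsd17b7 (-0.88) lay close to the threshold on either side. A link between the letters and the differences was not tested. As the letters were chosen with both the sequences and the values known, this is a description only.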
